A study of Mus musculus with 2 samples.

Results

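The synuclein genes Sncb and Sncg, which encode beta-synuclein and gamma-synuclein, were followed in dorsal striatum of mice that had taken cocaine. They are 2 of the 32531 gene symbols in the deposited count tables, and were chosen as members of the gene family. Sncb was in addition chosen by its ratio between the libraries, having been noted as higher in 1 of them, so that ratio is given as a description with no test. The mice worked for intravenous cocaine in long-access sessions, and their total dorsal striatal RNA was sequenced as 1 library for mice that raised their intake over time, called escalating, and 1 library for mice that did not, called nonescalating. All animals carried the Drd1-TRAP transgene of line CP73, a bacterial artificial chromosome that uses the Drd1 gene to put an EGFP-tagged ribosomal protein, EGFP/Rpl10a, into the neurons that make this dopamine receptor. Both libraries are input, which is RNA of the whole dissected tissue and not of the tagged ribosomes. The strain was a FVB/N and Swiss Webster mixture crossed to C57BL/6 for at least 9 generations. Age, sex and how many mice each library holds are not stated in the labels, and no group without cocaine was analysed here.

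Synucleins are small soluble proteins of nerve terminals that have no fixed fold in solution. Their first part holds imperfect repeats that turn into a helix on the curved, acidic surface of synaptic vesicles, where the proteins meet the SNARE machinery that fuses vesicles with the membrane. Beta-synuclein is found in neurons throughout the forebrain. Gamma-synuclein is known best from sensory and other peripheral neurons, retinal ganglion cells and fat, and its transcript marks a class of cortical interneurons. A messenger RNA in dissected striatum comes mostly from cells whose bodies lie there, while axons from cortex and midbrain bring their proteins with little RNA.

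Sncb (ENSMUSG00000034891.13) lies on chromosome 13 of build mm10, from 54758860 to 54766595 on the minus strand. Its longest transcript has 6 exons and 1351 bases, of which 399 code for 133 residues. Sncg (ENSMUSG00000023064.4) lies on chromosome 14, from 34370274 to 34374789 on the minus strand, with 5 exons, 852 bases and 369 coding bases for 123 residues. These positions come from GENCODE M21, in which no other gene overlaps either of them. The coding sequences were identical at 254 of 364 aligned bases (69.8%), and the longest run they shared was 16 bases. That run lies within the coding part of both transcripts, and the 60 coding bases around it (433 to 492 of the Sncb transcript and 345 to 404 of the Sncg transcript, GENCODE M21, with the shared run in capitals) show how close the genes come to each other:
Sncb: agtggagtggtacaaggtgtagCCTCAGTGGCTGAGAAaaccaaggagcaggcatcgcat
Sncg: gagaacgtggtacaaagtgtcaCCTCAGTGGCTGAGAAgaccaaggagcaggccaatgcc
Bases that differ flank the run on both sides. None of the 1302 words of 50 bases in the Sncb transcript and none of the 803 in the Sncg transcript occurred in a transcript of another gene, on either strand.

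Sncb was readily detected in both libraries and Sncg barely in either. Sncb had 456 counts in the escalating library against 124 in the other. After scaling with TMM factors, which set the library sizes so that most genes show no difference, this was 42.1 CPM (counts per 1000000 reads of the scaled library; exact 95% Poisson interval 38.4 to 46.2) against 15.0 CPM (12.5 to 17.9). The escalating library was the higher one, and the intervals did not overlap. Sncg had 2 counts and 5 counts, or 0.185 CPM (0.0224 to 0.668) and 0.604 CPM (0.196 to 1.41), and these intervals overlapped. The limit that a count of 0 allows, 3 counts, corresponds to 0.277 CPM for the escalating and 0.363 CPM for the other library, so Sncg lay close to the limit of detection in both. All intervals here cover counting error only, and with 1 library per group there is no replicate spread to set beside them and no p-value.

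Levels of different genes were compared per kilobase (kb) of the longest annotated transcript. Sncb stood at 31.2 CPM per kb (28.4 to 34.2) with escalation and 11.1 CPM per kb (9.23 to 13.2) without. Among genes with a read and a known length, that level exceeded 92.5% of 15797 genes in the former and 75.8% of 15904 genes in the latter. Sncg stood at 0.217 CPM per kb (0.0263 to 0.784) and 0.709 (0.230 to 1.66), above 12.9% and 23.2% of the same genes. The order was therefore the same in both libraries, with Sncb far above Sncg.

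**Figure D1:**
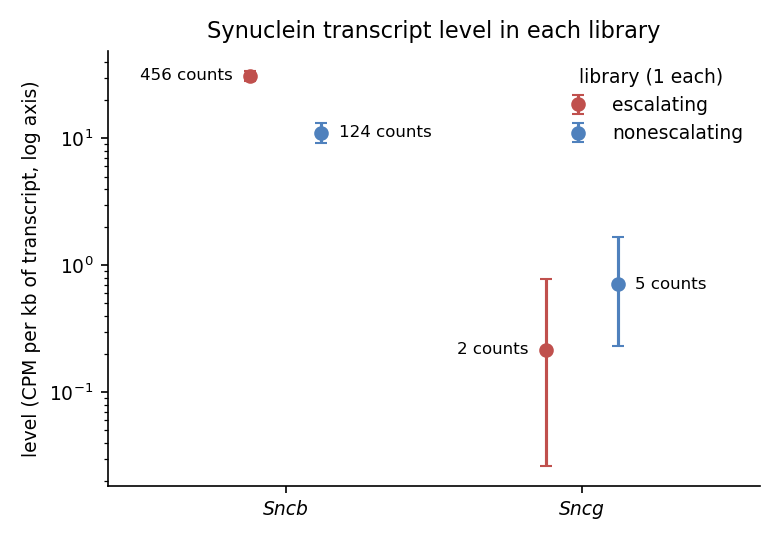
Level of Sncb and Sncg in each library, in CPM per kb of the longest transcript on a log axis; points are single libraries (red escalating, blue nonescalating), bars are exact 95% Poisson intervals and the numbers beside them are raw counts. The Sncb intervals (28.4 to 34.2 and 9.23 to 13.2) lie apart, and the Sncg intervals overlap.

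The ratio of Sncb to Sncg within a library does not depend on how the libraries are scaled to each other. Per kb it was 144 with escalation (exact 95% interval 39.6 to 1191) and 15.6 without (6.53 to 49.0). The first was 9.19 times the second, with an exact conditional 95% counting interval of 1.48 to 97.2 for that quotient, whose width reflects the 2 and 5 counts of Sncg. Sncb was chosen for its share in this direction, so the quotient is a description. Between the libraries, Sncg had a log2 ratio of -1.47 for escalating over nonescalating, with an interval from -5.10 to 0.90 that covers a difference in either direction. As a fold, that interval ends at 1.87-fold higher, below the 2.30-fold at which the interval of Sncb, given next, begins. Sncb was picked for a high ratio, so this gap describes that choice and says nothing particular about Sncg. No difference in Sncg itself was detectable at this depth. Sncg also had fewer than the 50 counts over both libraries that a gene needed to be compared, so 1 of the 2 synuclein genes passed that filter.

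Sncb was 2.81-fold higher in the escalating library (exact 95% counting interval 2.30 to 3.46), a log2 ratio of 1.49 (1.20 to 1.79). A gene is called higher or lower here when its ratio is at least 1.5-fold and its counting interval excludes 1. Sncb met this in the higher direction, as did 9.36% of the 12213 genes with at least 50 counts, while 17.1% were called lower. With a 2-fold threshold in place of 1.5-fold, Sncb was called higher too, as were 2.04% of the same genes. The calls in the higher direction were 35.4% of all calls with TMM factors and 77.0% with total assigned reads, under which 31.5% of genes were called higher. Its log2 ratio ranked 59 among those genes, above 99.5% of them. Since Sncb was picked for this ratio, the rank describes the choice and supports nothing. The median over all genes compared was 0.02 on the log2 scale with TMM factors and 0.38 with total assigned reads, under which the log2 ratio of Sncb was 1.85 (1.56 to 2.15). All ratios that follow are relative to the TMM centre.

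**Figure D2:**
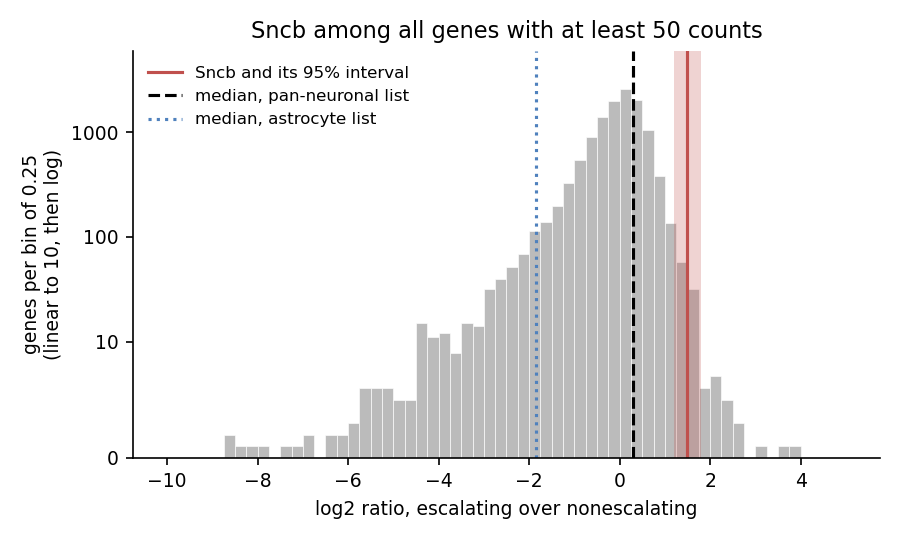
Number of genes in each bin of 0.25 of the log2 ratio, escalating over nonescalating, for the 12213 genes with at least 50 counts; the vertical axis is linear up to 10 genes and logarithmic above. Sncb (red line, shaded 95% interval 1.20 to 1.79) lies in the upper tail, above the median of the pan-neuronal list (dashed, 0.29), while the median of the astrocyte list (dotted) lies at -1.86.

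Of the genes around Sncb on chromosome 13, 1 had reads to compare. Gprin1, a neuronal gene known for a role in neurite outgrowth that lies 8986 bases away on the same strand and had 122 and 77 counts, was 1.21-fold higher (0.903 to 1.63), which was not called. On the other side, the antisense gene Gm16249 was not analysed here, and the next gene, Eif4e1b, had 0 counts in both libraries, as did Cdhr2, which lies beyond Gprin1. Beside Sncg, Mmrn2, which starts 676 bases away on the opposite strand, had 14 and 13 counts, Fam25c had 0 in both, and the processed pseudogene Gm3219 had 1 and 19. Bmpr1a, a receptor gene for bone morphogenetic proteins, lies 35945 bases from Sncg and had 470 and 1089 counts. Its log2 ratio was -1.60, or 3.03-fold lower (2.72 to 3.38), and it was called lower, as were 17.1% of all genes compared. The 2 and 5 counts of Sncg, with an interval of -5.10 to 0.90, are too few to say whether the 2 genes differ alike. Reads that overlapped more than 1 gene, and so were given to none, made up 8.06% of the reads listed for the escalating library against 18.9% for the other. No such overlap is annotated at either synuclein gene in GENCODE M21, although the labels do not state which annotation the deposited counts used.

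Sncb is a short transcript rich in G and C (61.4%), and such transcripts were called higher somewhat more often than all genes. Of 11317 genes with a known length and base composition, 8.83% were called higher. The shortest 25% (longest transcript up to 2504 bases) had 396 of 2831 genes called higher (14.0%), and the 25% richest in G and C (above 54.2%) had 367 of 2829. The 25% of like mean level, 22.1 to 57.8 CPM, had 182 of 2828 (6.44%). Of 198 genes that share all 3 of these classes with Sncb, 27 were called higher (13.6%) and 25 lower (12.6%), with a median log2 ratio of 0.09. The part of length and base composition in the Sncb ratio was not tested.

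Broadly expressed neuronal genes lay modestly above the centre, and Sncb lay above all of those listed. Of 18 pan-neuronal genes, 4 were called higher and 0 lower (9.36% of all genes were higher and 17.1% lower, with a median of 0.02), with a median log2 ratio of 0.29 and a range of -0.33 to 0.80. Uchl1, a ubiquitin hydrolase abundant in neurons with 2067 and 910 counts, was 1.74-fold higher (1.61 to 1.88). Nrgn, the postsynaptic calmodulin-binding protein neurogranin, had a log2 ratio of 0.67 (0.58 to 0.76). The intervals of all 18 genes ended below the lower bound of Sncb, whose log2 ratio exceeded their median by 1.20. Sncb was picked for a high ratio, so its place above listed genes, here and in the lists below, describes that choice. With total assigned reads 11 of the 18 were called higher, as were 31.5% of all genes, while 1148 of all 12213 genes were called lower. With the pan-neuronal median set to 0, 343 of all 12213 genes were called higher and 3513 lower. The counts given below for other lists under these scalings are to be read beside these totals.

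The machinery with which synucleins are known to work was near this neuronal level. Of 14 SNARE genes and linked chaperones, 4 were called higher and 0 lower (9.36% and 17.1% of all genes), with a median of 0.45. With total assigned reads 10 were called higher (median 0.81), and with the pan-neuronal median set to 0 only 1 was (median 0.16). Vamp1, a vesicle SNARE with 462 and 184 counts, was 1.92-fold higher (1.62 to 2.29), and Napa, which encodes the adaptor that brings NSF to used SNARE complexes, was 1.60-fold higher (1.42 to 1.81). Snap25 and Nsf stood at the edge of the call, with log2 ratios of 0.59 (0.56 to 0.61) and 0.59 (0.53 to 0.65), where 1.5-fold is 0.58 on that scale. Vamp2, the main vesicle SNARE of forebrain and a known synuclein partner, was 1.27-fold higher (1.23 to 1.31), and Dnajc5, which encodes the chaperone cysteine string protein, was 1.14-fold higher (1.08 to 1.21); neither was called. All 14 intervals ended below that of Sncb.

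Genes of vesicle recycling and membrane bending were similar. Of 19, 2 were called higher and 0 lower (9.36% and 17.1% of all genes), with a median of 0.32. Total assigned reads gave 13 called higher (median 0.68) and the pan-neuronal centre 0 in either direction (median 0.03). Dnm1, the neuronal dynamin that cuts vesicles from the membrane, was 1.75-fold higher (1.66 to 1.84), with 4888 and 2141 counts. Sh3gl2, which encodes the curvature-sensing protein endophilin A, was 1.61-fold higher (1.49 to 1.74). Amph and Ap2a1, for the endocytic proteins amphiphysin and an adaptor subunit, were 1.46-fold (1.31 to 1.63) and 1.43-fold higher (1.27 to 1.60) and were not called. The interval of Sncb lay above that of each of the 19.

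Resident proteins of the synaptic vesicle went both ways. Of 18 compared, 3 were called higher and 1 lower (9.36% and 17.1% of all genes), with a median of -0.06. The median became 0.31 with total assigned reads (6 higher, 0 lower) and -0.34 with the pan-neuronal median at 0 (2 higher, 4 lower). It was 0.05 when the 10 genes with the most reads were left out of the totals. The small GTPase genes Rab3a and Rab3b, whose products take part in vesicle release, were 1.65-fold (1.53 to 1.78) and 2.01-fold higher (1.74 to 2.33). Syngr3, a vesicle membrane protein gene, was 1.67-fold lower (1.47 to 1.90). Synaptophysin, encoded by Syp, differed by 1.01-fold (0.977 to 1.05 as a fold lower). The intervals of Rab3b and of the glutamate transporter gene Slc17a7 reached that of Sncb, and those of the other 16 ended below it.

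Kinases, ubiquitin ligases and binding partners known for synucleins also went both ways. Of 15 compared, 1 was called higher and 2 lower, with a median of -0.04. These counts are close to the shares over all genes, 9.36% higher and 17.1% lower. The median became 0.32 with total assigned reads (4 higher, 1 lower) and -0.33 with the pan-neuronal median at 0 (0 higher, 5 lower). Plk2, a kinase that phosphorylates synucleins, was, with 2585 against 1172 counts, 1.69-fold higher (1.57 to 1.81). Its relative Plk3 was 1.81-fold lower (1.14 to 2.90) on 34 and 47 counts. Pld1, a phospholipase D, an enzyme reported to be inhibited by synucleins, was 2.26-fold lower (1.69 to 3.03) with 77 and 133 counts, while Pld2 was 1.35-fold lower (1.08 to 1.69) and was not called.

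**Figure D3:**
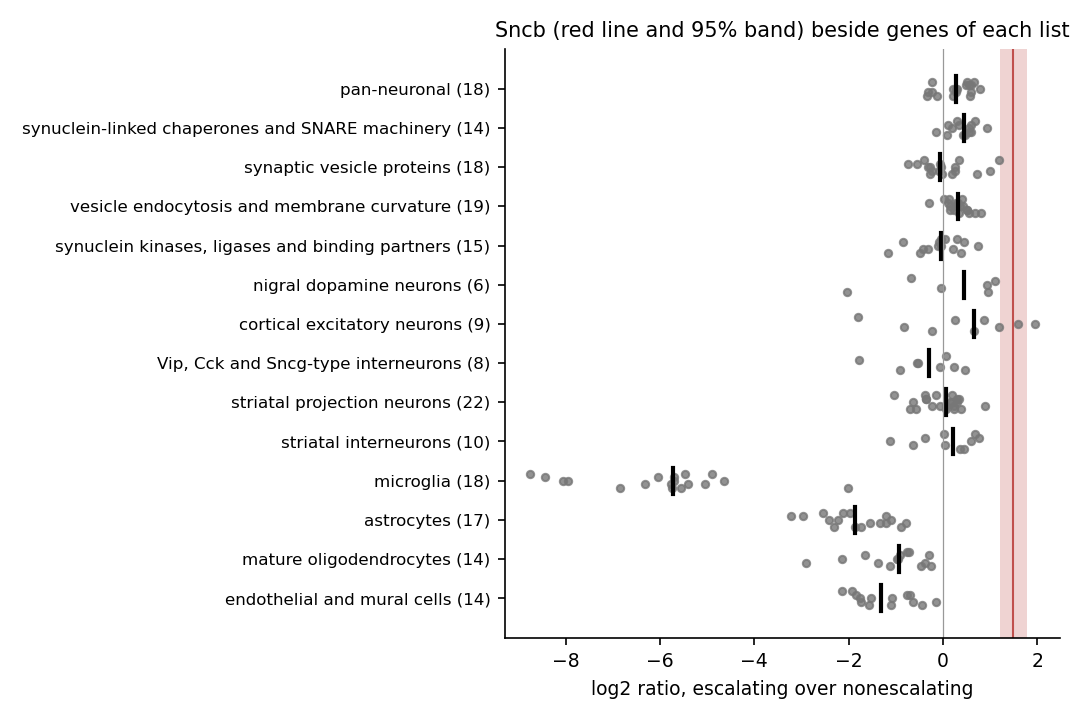
Log2 ratio, escalating over nonescalating, of each compared gene (grey points, spread vertically only for legibility) in 14 lists, with the number compared in brackets and the list median as a black bar; the red line and band are Sncb and its 95% interval. The Sncb band (1.20 to 1.79) lies to the right of every point in 13 of these lists; in the cortical list Tbr1 lies inside it and Neurod6 beyond it.

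Dissected dorsal striatum was the labelled tissue, and its defining genes were abundant in both libraries. Drd1 had 3010 and 2959 counts and Drd2 had 1628 in each. After scaling, Drd1 was 1.29-fold lower (1.22 to 1.35) and Drd2 1.31-fold lower (1.22 to 1.40) with escalation. Neither was called. Of 22 markers of the striatal projection neurons, 1 was called higher and 3 lower (9.36% and 17.1% of all genes), with a median of 0.07. When the pan-neuronal median was set to 0 it became -0.22 (1 higher, 7 lower, beside 343 and 3513 of all 12213 genes). With total assigned reads it was 0.43 (7 higher, 1 lower, beside 3853 and 1148 of all genes). Ppp1r1b, for the signalling protein DARPP-32, was 1.84-fold higher (1.80 to 1.89). In tissue RNA, fewer cells of a type and less RNA per cell cannot be told apart. With 1 library per group, neither can be told from a difference in dissection or in preparation of the library. This holds for every list here.

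Markers of cortical excitatory neurons included, among the listed genes, those with ratios above that of Sncb. Of 9 compared, 5 were called higher and 2 lower (9.36% and 17.1% of all genes). Their median was 0.66 (1.01 with total assigned reads and 0.37 with the pan-neuronal median at 0). Summed levels over 13 listed genes were 133.5 CPM with escalation against 216.1 CPM without. Neurod6, a transcription factor of cortical pyramidal cells with 67 and 13 counts, was 3.94-fold higher (2.16 to 7.78). Tbr1, a transcription factor of deep cortical layers with 139 and 35 counts, was 3.04-fold higher (2.08 to 4.54). Slc17a7, which loads glutamate into vesicles of cortical neurons and had 291 and 97 counts here, was 2.29-fold higher (1.82 to 2.92). The layer marker Rorb went the other way, 3.47-fold lower (3.13 to 3.85) with 506 and 1342 counts, and gave 46.8 and 162 CPM of the summed levels. With Rorb left out, the sum of the other listed genes was higher with escalation than without. Fezf2 was also called lower, at 1.78-fold lower (1.11 to 2.89) with 33 and 45 counts. Neurod1 and Emx1 had 0 counts in the nonescalating library, and 10 and 1 in the escalating library. The part of cortical RNA in the Sncb ratio was not tested.

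Markers of midbrain dopamine neurons gave 3 genes called higher and 2 lower of 6 compared, with a median of 0.45 (0.80 with total assigned reads and 0.16 with the pan-neuronal median at 0). Th, the rate-limiting enzyme of dopamine synthesis, was 1.95-fold higher (1.34 to 2.89) on 102 and 40 counts, while Aldh1a1 was 4.10-fold lower (3.25 to 5.21). The dopamine transporter gene Slc6a3 had 0 and 3 counts, and the defining transcription factors Pitx3 and En1 had 0 in both libraries. Striatal interneuron markers had 2 called higher and 2 lower of 10, with a median of 0.21. That became -0.08 with the pan-neuronal median set to 0 (0 higher, 3 lower) and 0.57 with total assigned reads (5 higher, 1 lower). For both lists the shares over all genes were 9.36% higher and 17.1% lower.

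Among the cell types in which Sncg is best known, sensory, retinal and adipocyte markers were low, while the interneuron list was not. Among markers of the Vip, Cck and Sncg-type interneurons, 0 were called higher and 2 lower of 8 (9.36% and 17.1% of all genes). Their median of -0.29 became 0.07 with total assigned reads (2 higher, 1 lower) and -0.58 with the pan-neuronal median at 0 (0 higher, 4 lower). The summed level of that list was 549 and 744 CPM, most of it from Cnr1 (2533 and 2795 counts) and Reln (1979 and 2225), which encode the cannabinoid receptor and the secreted protein reelin and are made by other neurons too. Vip itself had 0 and 1 counts, and Cck, a peptide of such cells that other neurons also make, had 130 and 103 counts. Of 7 markers of primary sensory neurons and retinal ganglion cells, none reached 50 counts, and their summed level was 2.50 and 4.47 CPM. Of 5 adipocyte markers, Fabp4 had 1 count in the nonescalating library and the rest had 0 in both.

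Glial and vascular markers lay on the other side of the centre from Sncb. Each of 18 microglial genes was called lower (median -5.73, summed level 41.2 and 1940 CPM), as was each of 17 astrocyte genes (median -1.86, 2685 and 17140 CPM). Of oligodendrocyte genes 10 of 14 were called lower (median -0.94) and of endothelial and mural genes 12 of 14 (median -1.32). In these 4 lists 0 genes were called higher, while over all genes 9.36% were higher and 17.1% lower. With total assigned reads 18 microglial, 15 astrocyte, 7 oligodendrocyte and 9 endothelial and mural genes were called lower. With the pan-neuronal median at 0 these numbers were 18, 17, 12 and 13. In the blood list, Hbb-bs had a log2 ratio of -1.85 and was called lower, and Alas2 had one of -0.01. The part of these markers in the Sncb ratio was not tested. With the pan-neuronal median set to 0, the log2 ratio of Sncb was 1.20, which is 2.31-fold (1.89 to 2.83). Sncb was called higher under that scaling, as were 343 of all 12213 genes. The scaling moves all genes by nearly the same amount and Sncb was picked for a high ratio, so this is no separate check.

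**Figure D4:**
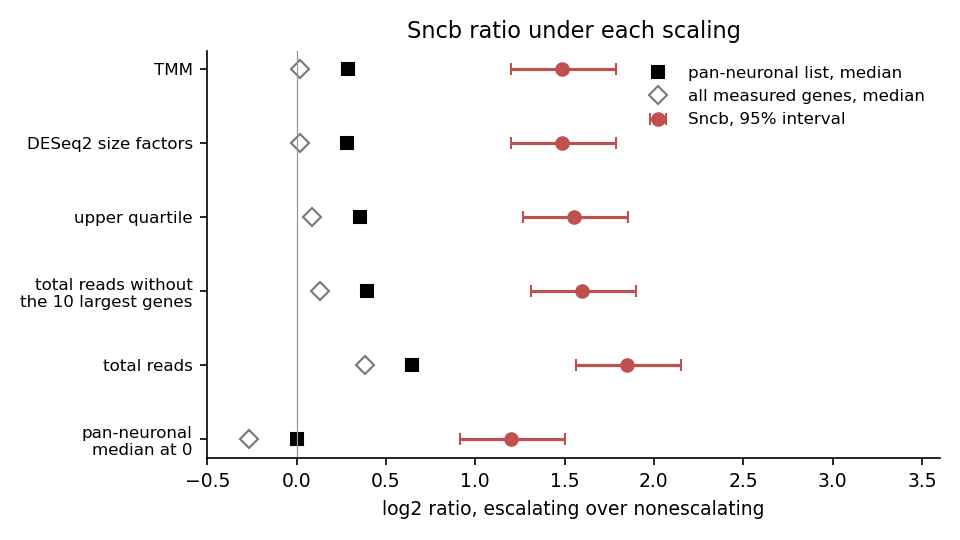
Log2 ratio of Sncb, escalating over nonescalating, under 6 ways of scaling the libraries (red points with 95% counting intervals), beside the median of the pan-neuronal list (black squares) and of all compared genes (open diamonds). The Sncb ratio ranges from 1.20 to 1.85. A change of scaling moves all genes by nearly the same amount, so the distance of Sncb from both medians is the same in each row and is no separate check.

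Over all lists, 190 of 201 distinct genes compared had intervals that ended below that of Sncb. Sncb was picked for this ratio, which lay above that of 99.5% of all 12213 genes compared. The count therefore describes the choice and says nothing particular about the lists. Among the remaining 11 were Rab3b and Slc17a7, the cortical genes Neurod6, Tbr1 and Nrn1, the dopamine neuron genes Th, Nr4a2 and Ret, and the interneuron genes Lhx8 and Nkx2-1. The intervals of all 11 overlap that of Sncb. Neurod6 and Tbr1 had ratios above that of Sncb itself.

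The genes most like Sncb in level and ratio were found as those nearest in log2(CPM + 0.5) over the 2 libraries. They were Pex26 (distance 0.26), a peroxisome membrane gene, Cdkn1a, which encodes the cell cycle inhibitor p21, Dgcr14, and Camk1g, a neuronal calcium/calmodulin-dependent kinase gene. With 381 against 124 counts, Pex26 was 2.35-fold higher (1.91 to 2.90). Cdkn1a, with 494 against 102, was 3.70-fold higher (2.99 to 4.63). Camk1g, with 493 against 156, was 2.42-fold higher (2.01 to 2.91). Likeness over 2 libraries says only that the values are close. The compared gene nearest to Sncg, Syngr2, lay 2.48 away on that scale with 7 and 43 counts, so none shared its level; all compared genes have at least 50 counts.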

How the data were processed

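Total RNA of dissected dorsal striatum was sequenced as 1 escalating and 1 nonescalating library, grouped by their titles. Per the submitters' processing notes, the authors used STAR 2.0.0e, the mm10 build and HTSeq; neither the strand setting nor the annotation is given in the sources used here. Deposited values were raw counts for each gene symbol. Reads given to no gene (46.2% and 44.7% of those listed) were left out, leaving 9548358 and 9376097 reads. The make-up of the reads left out differed between the libraries. Reads on no annotated gene were 28.6% of those listed for the escalating library and 18.1% for the other. Reads on more than 1 gene were 8.06% and 18.9%. The source of this difference was not tested.

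TMM factors (edgeR 4.0.16, R 4.3.3) were 1.13 and 0.882. Log2 ratios used a pseudocount of 0.5 counts scaled to library size; folds are ratios of CPM. Intervals are 95% Clopper-Pearson for the split of a gene's counts and Poisson for levels. No test between groups was possible with 1 library each, and edgeR's test was not run. Members and the 17 lists were chosen with earlier results of these data known. Named genes are the 4 (pathway lists) or 3 (marker lists) largest ratios in size, of which a selection is printed. With them are the 4 nearest genes, the adjacent genes, Drd1, Drd2 and Slc17a7. Vamp2, Dnajc5, Syp, Pld2, Cnr1, Reln and Fezf2 were added after their values were seen. So were genes named for counts near 0 or for reaching the Sncb interval. Some genes are not reported here. Transcripts, lengths and positions came from GENCODE M21 (same build), aligned with Biopython 1.88. The calls were run on simulated counts with known ratios and counting error only, where 0.816% of unchanged genes were called. That setting holds no spread between animals or libraries, so it cannot show how many calls here come from such spread. Also tried were other scalings (including size factors of DESeq2 1.42.0), pseudocount, filters, threshold and transcript length. Scripts ran in Python 3.11.15 (scipy 1.17.1, numpy 2.4.6, matplotlib 3.10.9, pandas 2.3.3).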

Additional observations from a re-analysis of the deposited data

How the results depend on the processing

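Sncb was called higher in the escalating library under every scaling, pseudocount and threshold tried. It was picked for a high ratio, and a change of scaling moves all genes by nearly the same amount. The repeated call is therefore no separate check. The log2 ratio of Sncb was 1.85 with total assigned reads and 1.20 with the pan-neuronal median set to 0. It lay between 1.46 and 1.60 under the other settings. Sncg was called under none, with log2 ratios from -1.72 to -0.67. The number of genes called higher, 1143 as reported, was 3853 with total reads, 1725 with total reads without the 10 genes with the most reads, 343 with the pan-neuronal median set to 0 and 249 at a 2-fold threshold. The number called lower, 2085 as reported, was 1148 with total reads, 3513 with the pan-neuronal median set to 0 and 1085 at 2-fold. Higher calls made up 35.4% of all calls as reported, 77.0% with total reads, 50.1% without those 10 genes and 8.89% with the pan-neuronal median set to 0. With the median length of its annotated transcripts in place of the longest, Sncb stood at 54.6 and 19.4 CPM per kb, since that length is shorter. Without replicates, no library could be left out. No paired analysis was possible because each group has 1 library. Depth limits Sncg, whose 2 and 5 counts leave its log2 ratio anywhere from -5.10 to 0.90.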
